A study of Mus musculus with 4 samples.

Results

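The genes described here are 33 genes of protein folding in the endoplasmic reticulum (ER): its chaperones, its disulfide and proline isomerases, its degradation machinery, and the sensors of unfolded protein. They were chosen by function, from a list of symbols, and each was found on the array through the RefSeq accession of its probes. All 33 had a probe, among 22911 genes that could be named. Of the 33, 32 were well above background on all 4 arrays. Derl3, a member of the derlin family, was not well above background on any array and gets no ratio.

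Total RNA of MC3T3-E1 cells was hybridised to 4 one-colour Agilent arrays. MC3T3-E1 is a mouse line of osteoblasts (bone-forming cells) derived from calvaria. The groups were Miglustat at 50 µM, D-PDMP at 10 µM, D-PPMP at 1.0 µM and Control, with 1 array each. Each compound blocks glucosylceramide synthase, the enzyme that adds glucose to ceramide. Treatment lasted 4 days, after which the cells were replated and grown for 24 h. The labels do not say whether inhibitor was present in those last 24 h, or what Control cells received. Miglustat is an iminosugar, whereas D-PDMP and D-PPMP are ceramide analogues that differ in the length of their acyl chain. Their concentrations differ, so the values stand side by side without a comparison among compounds.

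New secretory proteins enter the ER through the translocon and are folded there by Hsp70 and Hsp90 chaperones, by the lectin chaperones calreticulin and calnexin, which hold glycoproteins through a glucose left on their glycan, and by protein disulfide isomerases. Proteins that fail to fold are drawn back to the cytosol and degraded. When unfolded protein accumulates, the sensors Atf6, Ern1 (IRE1) and Eif2ak3 (PERK) raise the expression of many of these genes, in part through ER stress elements in promoters. Osteoblasts secrete large amounts of collagen and depend on this machinery. As background, miglustat-type iminosugars are also known to inhibit the ER glucosidases that trim the glycans read by the lectin chaperones. These arrays measured neither enzyme activity nor protein.

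The promoters are shown first because they carry the sequence feature that many of these genes share. RefSeq promoter windows of build GRCm38.p6, with 250 bases before the annotated start and 50 after it, were held for 28 of the 33 genes. Atf6, Derl1, Hspa13, Hyou1 and Manf had none. The ER stress element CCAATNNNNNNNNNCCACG, searched with these exact letters on both strands, lay in the windows of 9 of the 28 (32.1%) and in 37 of all 27025 genes with a window (0.137%), or in 0.119% of all windows. The 9 were Hspa5, Hsp90b1, Calr, Canx, Pdia6, Dnajc3, Creld2, Syvn1 and Derl3. Hsp90b1 alone of these had 2 elements. Counted from the start, the 10 elements lay between positions -212 and -26. In the elements below, each read 5′ to 3′ on its own strand, capitals mark the fixed letters.
Hspa5: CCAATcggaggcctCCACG
Calr: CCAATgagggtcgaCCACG
Hsp90b1, distal: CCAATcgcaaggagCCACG
Hsp90b1, proximal: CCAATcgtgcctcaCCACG
Canx: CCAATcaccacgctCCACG
Pdia6: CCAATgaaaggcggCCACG
Dnajc3: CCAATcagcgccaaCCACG
Creld2: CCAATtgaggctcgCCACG
Syvn1: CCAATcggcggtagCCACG
Derl3: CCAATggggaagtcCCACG

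For the 3 genes on which most of the results below turn or against which they are read, the 250 bases before the start are printed on the gene's strand, with the elements' fixed letters in capitals. In Calr the element runs on the opposite strand, so its letters appear as the reverse complement, and the same is true of the proximal element of Hsp90b1. The stretches lie at chr8:84846932-84847181 on the minus strand for Calr, chr10:86705445-86705694 on the minus strand for Hsp90b1, and chr2:34771840-34772089 on the plus strand for Hspa5.
Calr: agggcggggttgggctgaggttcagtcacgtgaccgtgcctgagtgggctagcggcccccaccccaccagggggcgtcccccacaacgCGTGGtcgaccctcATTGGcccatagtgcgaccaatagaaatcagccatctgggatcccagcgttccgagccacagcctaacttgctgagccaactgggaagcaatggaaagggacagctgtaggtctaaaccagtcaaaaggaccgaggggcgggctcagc
Hsp90b1: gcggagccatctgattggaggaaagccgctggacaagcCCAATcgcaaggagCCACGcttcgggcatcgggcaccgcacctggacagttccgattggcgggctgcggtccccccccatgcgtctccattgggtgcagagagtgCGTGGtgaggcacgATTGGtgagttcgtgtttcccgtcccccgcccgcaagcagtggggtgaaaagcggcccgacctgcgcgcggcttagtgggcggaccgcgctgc
Hspa5: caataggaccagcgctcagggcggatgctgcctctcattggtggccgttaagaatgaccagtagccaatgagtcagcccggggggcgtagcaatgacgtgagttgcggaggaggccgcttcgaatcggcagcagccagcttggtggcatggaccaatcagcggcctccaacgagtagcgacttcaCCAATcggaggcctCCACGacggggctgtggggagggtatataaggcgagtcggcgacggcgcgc

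Other motifs were rarer among the 28. The ER stress element II, ATTGGNCCACG, which ends in the same CCACG, lay in Herpud1 (as ATTGGgCCACG) and in Dnajb11 (as ATTGGcCCACG). That is 7.14% of the 28 genes, against 0.0444% of all genes with a window, or 0.0365% of all windows. The UPRE core TGACGTGG was found in 1 of the 3 windows of Txndc5 only, against 0.714% of all genes with a window, or 0.676% of all windows. The ATF4-CHOP composite (TGATG, 1 free base, AATC) was in none of the 28, and in 0.2% of all genes with a window, or 0.167% of all windows. A match describes letters in a window and does not show binding of a factor.

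A level is given as the log2 signal relative to the array's 75th percentile, for the gene's brightest probe. For all 33 members that probe has 1 spot on each array. A ratio is the log2 difference between an inhibitor array and the Control array, and a level is compared only between arrays, never between genes. With 1 array a group there was no test, no p-value and no replicate error, and precision is limited by having so few arrays. The spread of replicate spots within an array gives an error of 0.0467 to 0.0485 for a log2 ratio of bright probes, and the scanner software's own error of such a ratio was 0.204 to 0.213 for the 32 genes. Neither covers differences between cultures. Genes whose log2 ratio is at least 0.32 from 0 are counted as higher or lower, a small difference chosen because differences in this group of genes were known to be small.

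All 4 arrays were on 1 slide, and the effects of array position and of group cannot be told apart. Between 57.4% (Control) and 62.4% (D-PPMP) of probes were well above background, and no spot was saturated. Ugcg, which encodes the target enzyme, had a ratio of 0.09 on the Miglustat array, 0.08 on the D-PDMP array and 0.00 on the D-PPMP array, and its mRNA does not report on the enzyme's inhibition. Of 14 osteoblast markers 9 were well above background on all arrays, among them Runx2, Sp7 and Col1a1, while Alpl, Ibsp and Dmp1 were on none. Of the markers of other cell types, 4 of 8 macrophage and blood, 1 of 5 endothelial, 2 of 5 adipocyte, 1 of 5 skeletal muscle and 2 of 5 chondrocyte markers were well above background on all 4 arrays. In that order they were Cd68, Csf1r, Itgam and Cd14, then Pecam1, then Fabp4 and Pparg, then Acta1, then Col2a1 and Sox9. The markers on none numbered 4, 4, 2, 3 and 1 in the same order, among them Ptprc, Cdh5, Plin1, Myod1 and Acan. The summed signal of 8 macrophage and blood markers was 5150 with Miglustat, 4840 with D-PDMP, 5100 with D-PPMP and 5030 in Control, and that of the 5 chondrocyte markers was 16900 (Miglustat), 10700 (D-PDMP), 10100 (D-PPMP) and 12400 (Control). In the same order of arrays, the sums were 269000, 252000, 241000 and 276000 for the osteoblast markers. They were 21.6, 25.7, 26 and 17.9 for the endothelial and 75.9, 63.1, 59.9 and 54.4 for the adipocyte markers. For the skeletal muscle markers they were 3830, 3310, 3460 and 3340. The part of other cell types in the results below was not tested. In bulk RNA a lower share of cells expressing a gene and less of its RNA per cell cannot be told apart.

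The 3 comparisons below share the same Control array. With Miglustat the median ratio of the 32 measured genes was 0.04, against -0.02 over all 14171 genes measured, and 12 of the 32 were below Control where 55.5% of all genes were. Yet 3 of the 32 (Calr, Hsp90b1 and Pdia3) were lower by at least 0.32, beside 4.59% of all genes, and none was higher by at least 0.32, beside 5.77%. With D-PDMP the median was -0.01 against 0.00 over all 14154 genes, 19 of 32 were below Control beside 50.4% of all genes, and none was lower or higher by at least 0.32, beside 4.8% and 4.91%. With D-PPMP the median was -0.10 against -0.01 over all 14200 genes, and 26 of 32 were below Control beside 51.5% of all genes. There, 2 of the 32 (Hyou1 and Derl1) were lower by at least 0.32, beside 5.23%, and none was higher by at least 0.32, beside 7.54%. No member was 2-fold apart in any comparison, where 0.388%, 0.325% and 0.507% of all genes were with Miglustat, D-PDMP and D-PPMP.

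**Figure D1:**
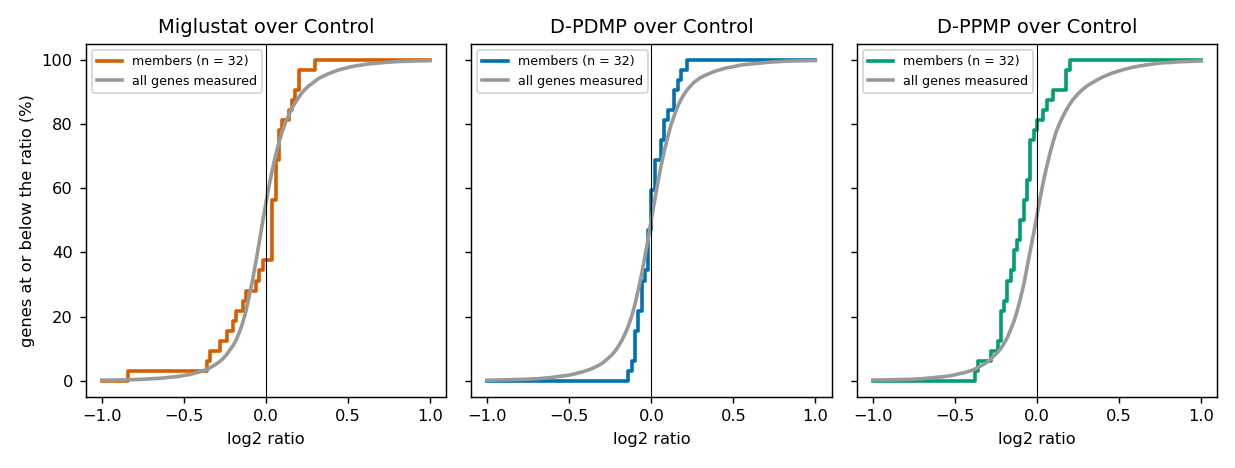
Cumulative share of genes (y axis, percent) at or below a log2 ratio over Control (x axis), for the 32 measured members (coloured steps) and for all genes measured (grey), with 1 panel for each inhibitor. The medians of members and of all genes are -0.10 and -0.01 with D-PPMP, -0.01 and 0.00 with D-PDMP, and 0.04 and -0.02 with Miglustat. The members' lowest values are -0.85 (Miglustat) and -0.40 (D-PPMP), and the grey curves reach lower.

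The counts depend on the scaling at the margin. Lower by at least 0.32 with Miglustat was Calr alone under cyclic loess, beside 5.83% of all genes. When arrays were scaled to their median it was 5 members, beside 9.65% of all genes, and the median of all genes was itself at -0.12. With D-PPMP that scaling gave 15 members, beside 24.1% of all genes and with their median at -0.22, and normexp background correction gave 1, beside 1.84%. Among the 24 members above the median level of measured genes, 3 were lower by at least 0.32 with Miglustat, beside 1.07% of the 7002 genes at such levels.

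The lectin chaperones held the lowest ratio of the group. Calr encodes calreticulin, the soluble calcium-binding lectin chaperone. Its level was 4.07 with Miglustat, 4.91 with D-PDMP, 4.81 with D-PPMP and 4.92 in Control. The Miglustat array stood apart from the other 3. The ratio with Miglustat was -0.85, or 1.81-fold lower, and only 40 of 14171 genes (0.282%) were at or below it. It lay between -0.96 and -0.81 under the 10 alternatives tried. Calr has 1 probe with 1 spot on each array, so no second probe speaks to this value. Canx, calnexin, is the membrane-bound partner lectin. Its level was 6.39 with Miglustat, 6.60 with D-PDMP, 6.53 with D-PPMP and 6.60 in Control. Its ratio with Miglustat was -0.22, and -0.14 by its other probe.

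**Figure D2:**
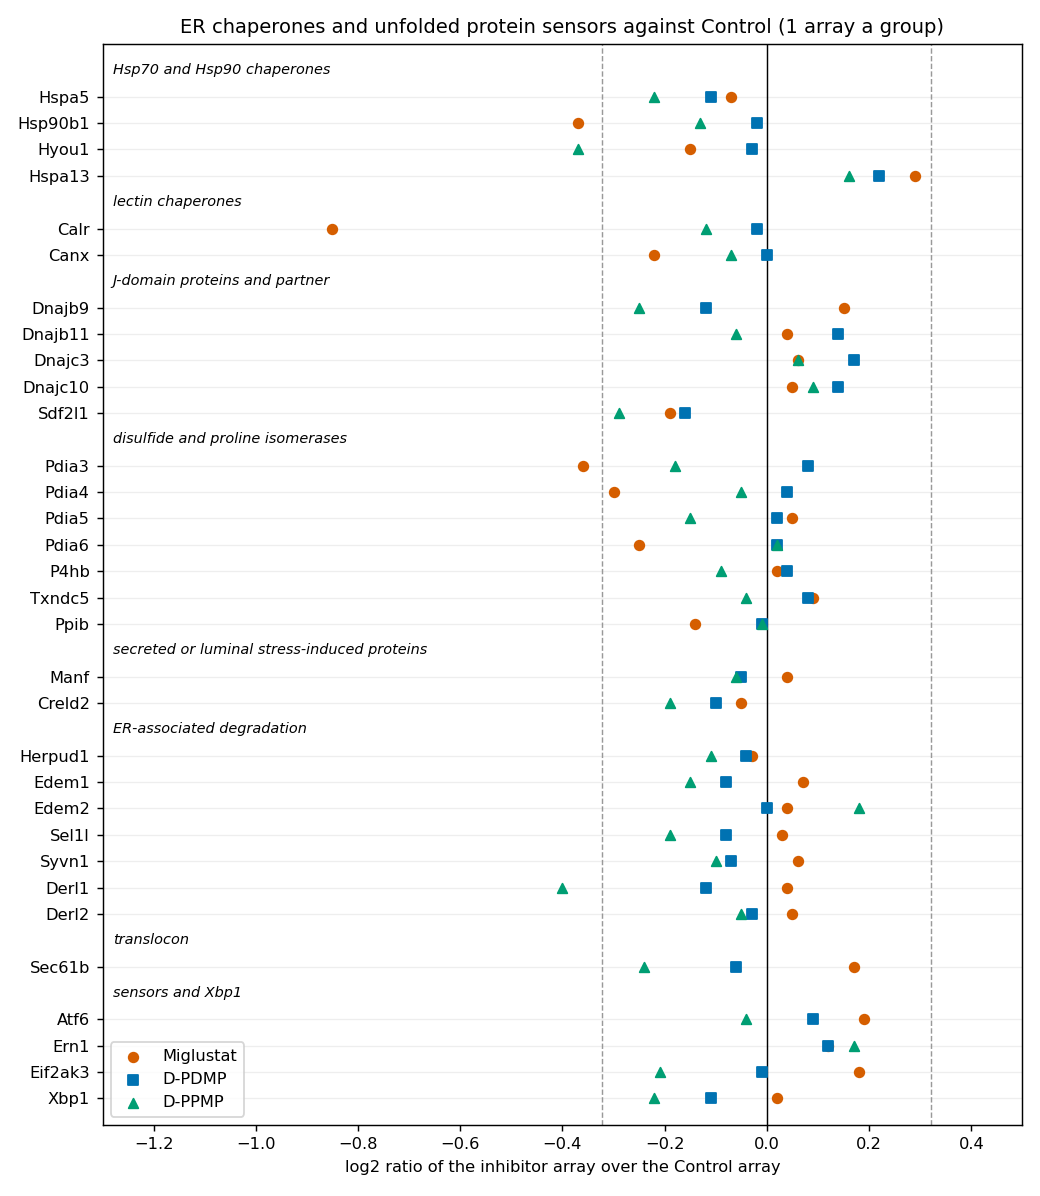
Log2 ratio over Control (x axis) of the 32 measured genes, grouped by role (y axis), with 1 colour for each inhibitor and 1 array behind each group; dashed lines mark 0.32 on either side of 0. Calr with Miglustat, at -0.85, is the point farthest from 0.

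Of the 4 Hsp70 and Hsp90 chaperones, 3 were below Control in each comparison, and Hspa13 was above it. The share of all genes below Control was 55.5% (Miglustat), 50.4% (D-PDMP) and 51.5% (D-PPMP). Of the 3, Hsp90b1 and Hyou1 were close to Control on the D-PDMP array, with ratios of -0.02 and -0.03. Neither kept its sign there under every alternative, where the highest values were 0.03 and 0.04. The median of the 4 chaperones with D-PDMP lay between -0.13 and 0.01 over the alternatives. Hsp90b1 encodes Grp94, the Hsp90 of the ER. Its level was 6.94 with Miglustat, 7.28 with D-PDMP, 7.17 with D-PPMP and 7.31 in Control. The Miglustat array was again the lowest, with a ratio of -0.37 from 1 probe. Hspa5 encodes BiP, the main Hsp70 of the ER and the partner that keeps the sensors inactive. Its level was 6.57 with Miglustat, 6.53 with D-PDMP, 6.42 with D-PPMP and 6.64 in Control. Here D-PPMP was the lowest array, and the ratios with D-PPMP were -0.22, -0.36 and -0.36 by the 3 probes of Hspa5. Hyou1 encodes Grp170, a large Hsp70 that exchanges the nucleotide of BiP. Its level was -1.82 with Miglustat, -1.70 with D-PDMP, -2.04 with D-PPMP and -1.68 in Control. The ratio with D-PPMP was -0.37, and -0.38 and -0.14 by the other probes. Those other probes gave -0.01 and 0.02 with Miglustat, and 0.01 and 0.15 with D-PDMP. Hspa13, a microsomal Hsp70-like ATPase, went the other way, with a level of 2.34 with Miglustat, 2.27 with D-PDMP, 2.21 with D-PPMP and 2.05 in Control. All 3 inhibitor arrays were above the shared Control array, except that D-PPMP was at -0.05 when arrays were scaled to their median.

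The disulfide and proline isomerases were split with Miglustat. Pdia3 (ERp57) forms disulfide bonds in glycoproteins held by calreticulin and calnexin. Its level was 4.75 with Miglustat, 5.19 with D-PDMP, 4.93 with D-PPMP and 5.11 in Control. The ratio with Miglustat was -0.36, and -0.47 by its other probe, so both probes put the Miglustat array lowest. Pdia4 (ERp72) had a level of 1.65 with Miglustat, 1.99 with D-PDMP, 1.89 with D-PPMP and 1.95 in Control. Pdia6 (P5) had a level of 7.25 with Miglustat, 7.52 with D-PDMP, 7.53 with D-PPMP and 7.50 in Control. For both of these isomerases the Miglustat array was the lowest of the 4, with ratios of -0.30 for Pdia4 and -0.25 for Pdia6. Ppib, the proline isomerase cyclophilin B, which acts on procollagen, had a ratio of -0.14 with Miglustat. P4hb (the founding disulfide isomerase and a subunit of collagen prolyl 4-hydroxylase), Pdia5 and Txndc5 had ratios between 0.02 and 0.09 with Miglustat. With D-PDMP the 7 isomerases lay between -0.01 and 0.08, and with D-PPMP between -0.18 (Pdia3) and 0.02 (Pdia6).

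**Figure D3:**
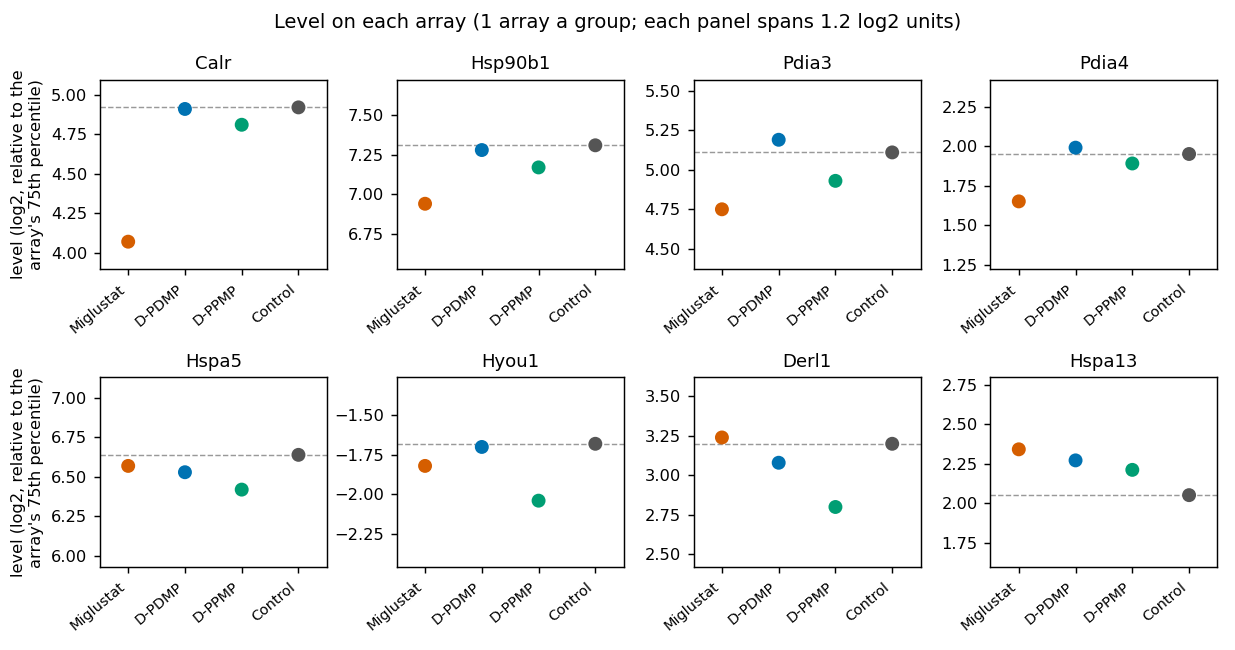
Level of 8 members on each of the 4 arrays (y axis, log2 signal relative to the array's 75th percentile), with 1 point an array, no error bar and a dashed line at the Control level. Each panel has its own axis of the same span. The Miglustat point of Calr, at 4.07, lies below its other points, which run between 4.81 and 4.92.

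The J-domain proteins stimulate the ATPase of BiP. Dnajb9 (ERdj4) had a level of 0.93 with Miglustat, 0.66 with D-PDMP, 0.53 with D-PPMP and 0.78 in Control. Its ratio with D-PPMP was -0.25, and -0.18 by its dimmer probe. Sdf2l1, a partner of ERdj3 in the lumen, had a level of 0.52 with Miglustat, 0.55 with D-PDMP, 0.42 with D-PPMP and 0.71 in Control. It was below Control on all 3 inhibitor arrays. By their brightest probes, Dnajb11 (ERdj3), Dnajc3 (p58IPK) and Dnajc10 (ERdj5, a disulfide reductase) lay between 0.04 and 0.06 with Miglustat. They lay between 0.14 and 0.17 with D-PDMP and between -0.06 and 0.09 with D-PPMP. In the same order of comparisons, the other probe of Dnajb11 above background gave 0.05, 0.06 and -0.05. The other probes of Dnajc10 gave 0.04 and 0.19 with Miglustat, 0.03 and 0.15 with D-PDMP, and 0.08 and -0.10 with D-PPMP. The stress-induced luminal proteins Manf and Creld2 had ratios of 0.04 and -0.05 with Miglustat, -0.05 and -0.10 with D-PDMP, and -0.06 and -0.19 with D-PPMP.

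Genes of ER-associated degradation stayed near Control with Miglustat by their brightest probes, where the 7 measured lay between -0.03 and 0.07. The other probe with Miglustat was at -0.22 for Sel1l, -0.07 for Herpud1, 0.00 for Edem1 and 0.01 for Derl2. With D-PPMP 6 of the 7 were below Control by their brightest probes, beside 51.5% of all genes, with a median of -0.11. With D-PDMP 7 of the 7 were below, beside 50.4% of all genes, with a median of -0.07 and Edem2 at 0.00. The other probe with D-PPMP was at -0.29 for Sel1l, 0.03 for Herpud1, 0.01 for Edem1 and -0.09 for Derl2. Derl1, a rhomboid-like membrane protein of the export channel, had a level of 3.24 with Miglustat, 3.08 with D-PDMP, 2.80 with D-PPMP and 3.20 in Control. Its D-PPMP array was the lowest, with a ratio of -0.40, the lowest of the members with D-PPMP. Derl1 has 1 probe with 1 spot on each array, so no second probe speaks to this value. The ratio lay between -0.61 and -0.36 under the 10 alternatives, which rework the same spots. Sel1l and Syvn1 (Hrd1), the adaptor and the ubiquitin ligase of one complex, had ratios of -0.19 and -0.10 with D-PPMP. Herpud1, which helps assemble that complex, was at -0.11, Edem1, a mannose-trimming factor, at -0.15, and Derl2 at -0.05. Edem2, which starts mannose trimming, was at 0.18 by its brightest probe and at -0.50 by the other. The probes of Edem2 also disagreed with Miglustat, at 0.04 and -0.75, so no direction is given for it.

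Sec61b, a subunit of the translocon, had a level of 6.97 with Miglustat, 6.74 with D-PDMP, 6.57 with D-PPMP and 6.81 in Control. The Miglustat array was the highest and the D-PPMP array the lowest. The other probe of Sec61b gave ratios of 0.20 with Miglustat and -0.14 with D-PPMP.

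The 3 sensors were above Control with Miglustat, as were 6313 of all 14171 genes measured. Each sensor has 1 probe. Atf6, whose cleaved form is a transcription factor, had a level of 1.09 with Miglustat, 0.99 with D-PDMP, 0.86 with D-PPMP and 0.90 in Control. Eif2ak3, the kinase that phosphorylates eIF2α, had a level of 0.98 with Miglustat, 0.78 with D-PDMP, 0.58 with D-PPMP and 0.79 in Control. Ern1, the endonuclease that splices Xbp1 mRNA, had a level of -1.29 with Miglustat, -1.29 with D-PDMP, -1.24 with D-PPMP and -1.42 in Control. All 3 ratios with Miglustat, 0.19, 0.18 and 0.12, were within the scanner software's error. Xbp1 had a level of 5.35 with Miglustat, 5.22 with D-PDMP, 5.10 with D-PPMP and 5.32 in Control. Its 3 probes gave -0.22, -0.24 and -0.34 with D-PPMP. In the same order, brightest first, they gave -0.11, -0.33 and -0.25 with D-PDMP, and 0.02, -0.13 and -0.10 with Miglustat. The ratios do not separate spliced from unspliced Xbp1.

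Set against the scanner software's error, 6 of the 32 genes were lower by more than it with Miglustat (Hsp90b1, Calr, Canx, Pdia3, Pdia4 and Pdia6), beside 9.56% of all genes, and 1 was higher (Hspa13), beside 9.97%. With D-PDMP none was lower, beside 9.29%, and 1 was higher (Hspa13), beside 9.03%. With D-PPMP 8 were lower (Hspa5, Hyou1, Dnajb9, Sdf2l1, Derl1, Sec61b, Eif2ak3 and Xbp1), beside 10.5% of all genes, and none was higher, beside 12.2%. Across the 19 further probes of the 15 members with more than 1 probe, the ratio differed from that of the brightest probe by a median of 0.10 (Miglustat), 0.05 (D-PDMP) and 0.10 (D-PPMP), and 17 of the 19 were within 0.2 in each comparison.

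**Figure D4:**
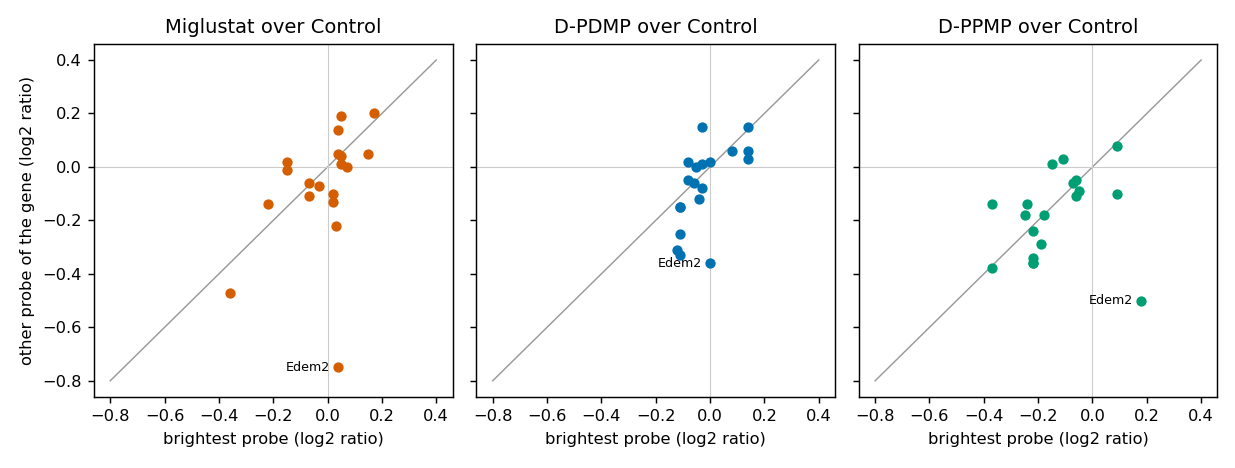
Log2 ratio over Control of the further probes of a member (y axis) against that of its brightest probe (x axis), with 1 panel for each inhibitor and 19 probes of 15 genes in each. Edem2 lies farthest from the diagonal, with differences of 0.79 (Miglustat), 0.36 (D-PDMP) and 0.68 (D-PPMP).

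By promoter sequence, the 8 measured genes with an ER stress element in the window had a median ratio of -0.14 with Miglustat and 6 of the 8 were below Control, while the 19 without it had a median of 0.04 and 5 below, beside 55.5% of all genes. With D-PDMP the medians were -0.02 with the element and -0.01 without, with 5 of 8 and 11 of 19 below Control, beside 50.4%. With D-PPMP both medians were -0.11, with 6 of 8 genes below Control with the element and 16 of 19 without, beside 51.5%. Within the Miglustat comparison the genes with the element ran between -0.85 (Calr) and 0.06 (Syvn1), and Hspa5, whose stretch is printed above beside that of Calr, was at -0.07. Scaled to the array median, the medians with Miglustat were -0.25 with the element and -0.06 without, and that of all genes was -0.12. These are descriptions of groups drawn from the same members, with no test.

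**Figure D5:**
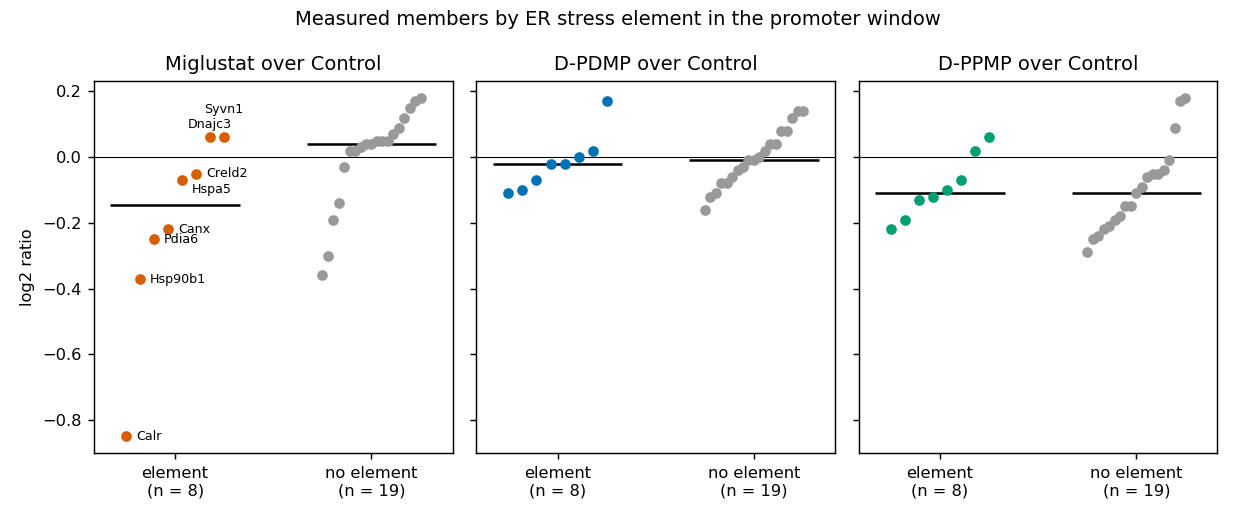
Log2 ratio over Control (y axis) of the measured members with an ER stress element in the promoter window (left in each panel, n = 8) and without it (right, n = 19), with the median as a bar. With Miglustat the medians are -0.14 and 0.04, and with D-PPMP both are -0.11.

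Other genes of the secretory pathway, of stress signalling and of chaperones outside the ER were followed in 6 lists of 168 genes, of which 166 were measured. The pooled counts therefore include 28 cytosolic and mitochondrial chaperones, which are not part of the secretory pathway. With Miglustat 82 of the 166 were below Control (55.5% of all genes were), with 1 lower by at least 0.32 (4.59%) and 7 higher (5.77%). With D-PDMP 95 were below (50.4%), with 3 lower (4.8%) and 1 higher (4.91%). With D-PPMP 120 were below (51.5%), with 6 lower (5.23%) and 1 higher (7.54%), and the median was -0.06. The lists of translocon, signal peptidase and oligosaccharyltransferase (27 of 30 below Control), of ER-Golgi transport (25 of 30), of ER folding enzymes and co-factors (30 of 36) and of stress transducers and the PERK branch (15 of 20) lay mostly below Control with D-PPMP, beside 51.5% of all genes. With D-PDMP the counts in the same order were 21 of 30, 20 of 30, 20 of 36 and 14 of 20, beside 50.4%. Of the cytosolic and mitochondrial chaperones, 10 of 28 were below Control with D-PPMP, and 13 of 22 further genes of ER-associated degradation were. The medians of both lists changed sign with the scaling. Relative to all genes, the median of these chaperones stayed between 0.02 and 0.07 over the alternatives. That of the further degradation genes lay between -0.01 and 0.03.

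The genes named from these lists are those with the largest ratios, and they do not stand for their lists. With Miglustat the stress transducers and PERK branch had a median of 0.02, with 8 of 20 below Control. The cytosolic and mitochondrial chaperones had a median of -0.06, with 19 of 28 below. All genes had a median of -0.02, with 55.5% below. Relative to all genes, the median of these chaperones lay between -0.08 and 0.01 over the alternatives. Atf3, a stress-induced transcription factor, had a level of -1.59 with Miglustat, -2.57 with D-PDMP, -2.63 with D-PPMP and -2.51 in Control. Ppp1r15a (GADD34), which restores eIF2α after PERK signalling, had a level of 3.11 with Miglustat, 2.89 with D-PDMP, 2.65 with D-PPMP and 2.59 in Control. The Miglustat array was the highest for both. Bhlhe40, a transcription factor of the same list, had a ratio of -0.12 with Miglustat and 0.77 with D-PPMP. The cytosolic chaperones Hspa1b, Hspb1 and Cryab had ratios of 0.55, 0.51 and 0.43 with Miglustat, and of 0.12, -0.58 and -0.29 with D-PPMP. Fkbp14, a proline isomerase acting on collagen, had a level of 3.86 with Miglustat, 3.42 with D-PDMP, 3.21 with D-PPMP and 3.70 in Control. Lman1 (ERGIC-53), a cargo lectin between ER and Golgi, had a ratio of -0.28 with D-PPMP, and Sec31a, a COPII coat subunit, of -0.24.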

How the data were processed

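The deposited scanner files hold spot intensities made with Agilent Feature Extraction 12.1.1.1, per the submitters' processing notes; per the file headers, background had been subtracted from the processed signal, the intensity used here. The authors' deposited value table holds log2 values, which differed from those computed here by at most 0.0146; its column medians were -3.99 (Miglustat), -3.99 (D-PDMP), -3.88 (D-PPMP) and -4.09 (Control). Control spots and outlier-flagged spots were left out, signals were floored at 1, log2 was taken, spots of a probe were averaged, and the array's 75th percentile over 56605 probes was subtracted. Probes were named by accession through RefSeq (GRCm38.p6, names only), which named 32994 probes (58.3%) and 22911 genes. A gene is its brightest probe, and counts as measured when well above background on both arrays compared. All 33 members are named, with up to 3 genes of each further list by size of ratio, and Ugcg. The members and lists were chosen with earlier results of these data known. There was 1 array a group, so no test was run. The steps were tested on simulated data. Alternatives covered background correction (normexp in limma 3.58.1, on the median signal since no mean signal column was held), scaling, filters and probe choice, in R 4.3.3 and Python 3.11.15 with pandas 2.3.3. Protein sequences were not analysed here.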

Additional observations from a re-analysis of the deposited data

How the results depend on the processing

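Calr with Miglustat and Derl1 with D-PPMP were lower by at least 0.32 in log2 under all 10 alternatives. Each has 1 probe with 1 spot on each array, so the alternatives rework the same spots. The number of members lower by at least 0.32 in log2 with Miglustat was 1 under cyclic loess (5.83% of all genes) and 5 with arrays scaled to their median (9.65%). With D-PDMP it was 1 without a filter on dim probes (9.12%). With D-PPMP it was 15 with arrays scaled to their median (24.1%), 1 under normexp (1.84%), 1 among genes above the median level (2.19%) and 1 with the mean of a gene's probes (4.96%). Scaling to the median moved the members' median ratio to -0.07 with Miglustat (turning its sign), -0.12 with D-PDMP and -0.32 with D-PPMP, and that of all genes to -0.12, -0.11 and -0.22. Relative to all genes, the members' median stayed between 0.04 and 0.08 with Miglustat, between -0.02 and 0.00 with D-PDMP, and between -0.10 and -0.06 with D-PPMP. The sign held under every alternative for 15, 19 and 25 of the 32 members with Miglustat, D-PDMP and D-PPMP. No paired analysis was possible because each group has 1 array, and all 4 arrays lie on 1 slide, so no slide block could be fitted. Derl3, not well above background, has no ratio.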
